A study of Mus musculus with 12 samples.

Results

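The 10 genes described here encode subunits of the transcription factor NF-kappaB, the proteins that hold it back and the kinase that releases it: Nfkbia, Nfkbib, Nfkbiz, Nfkb1, Nfkb2, Rela, Relb, Tnfaip3, Ikbkb and Bcl3. They were picked by symbol, 10 of the 57010 genes in a table of liver transcript levels, and each symbol stood in 1 row. The low level of Nfkbia in treated mice was already known when they were chosen, so every difference between the groups given for them is a description and supports nothing. Livers came from 12 male wild-type C57BL/6J mice, 6 weeks old at the start and fed a normal diet, with 6 mice per group. The protocol gives 10 mice per group, of which 6 per group have libraries here. The control group is labelled as untreated, and the sources used here do not say whether it was gavaged. The selenium group received the food fungus Aspergillus oryzae A02 enriched with selenium, by daily gavage in saline at 0.5 mg selenium per kg. Fungus and selenium came together and cannot be told apart, so "selenium" below names a group. The design text states 8 weeks of feeding and the sample descriptions 14 weeks.

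NF-kappaB dimers are built from Rela, Relb, Rel and the processed products of Nfkb1 and Nfkb2, and in resting cells they are held in the cytoplasm by IkB proteins. Signals from cytokine and microbe receptors activate the IKK kinases, which mark IkB for degradation and free the dimers to enter the nucleus. Several of the genes then switched on, Nfkbia, Tnfaip3, Relb and Nfkb2 among them, encode inhibitors or further subunits, so their transcripts are textbook readouts of the pathway. In liver both hepatocytes and the resident macrophages, endothelial cells and other cells use it.

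Transcript levels are given as TPM, a share of all transcripts in a library that is corrected for transcript length, so levels of different genes can be compared. The sequencing depth is unknown, and a low TPM carries an unknown counting error. Genes with at least 1 TPM in 6 or more libraries were tested, which kept 9980 genes and 9 of the 10 described here. Tnfaip3 reached 1 TPM in 4 control libraries and 1 selenium library and was not tested. Relb passed through 4 control and 2 selenium libraries, and Nfkbiz through 5 and 3. The other 7 exceeded 1 TPM in all 12 libraries.

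Promoters are shown because the group of genes that varied together among mice, described further on, is known for NF-kappaB sites near the start of transcription. RefSeq promoter sequences of build GRCm38.p6 were matched by symbol for 6 of the 10 genes, Nfkbia, Nfkbib, Nfkb2, Rela, Tnfaip3 and Bcl3, and for Nfkbie, the chemokine gene Cxcl10 and the adhesion molecule gene Icam1, which varied with them. The deposited tables hold no coordinates and their processing notes name another build, GRCm39. Each sequence below is the 250 bases before the first listed start, 5′ to 3′ on the gene's strand. Windows without a match are not printed, nor are windows of further listed starts. Capitals mark a match to the kappaB consensus of NF-kappaB, searched on both strands.
Nfkbia, chr12:55492648-55492897, minus strand: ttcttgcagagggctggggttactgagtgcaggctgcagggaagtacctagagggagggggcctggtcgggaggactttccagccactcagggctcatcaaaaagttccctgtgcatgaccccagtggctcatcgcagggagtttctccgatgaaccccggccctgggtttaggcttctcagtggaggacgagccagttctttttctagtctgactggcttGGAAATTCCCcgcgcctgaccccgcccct
Nfkb2, chr19:46304487-46304736, plus strand: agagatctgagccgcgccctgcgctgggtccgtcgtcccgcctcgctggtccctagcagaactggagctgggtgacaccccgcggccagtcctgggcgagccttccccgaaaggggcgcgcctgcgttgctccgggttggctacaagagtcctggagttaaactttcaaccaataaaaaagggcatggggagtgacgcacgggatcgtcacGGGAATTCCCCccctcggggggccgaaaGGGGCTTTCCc
Tnfaip3, chr10:19015411-19015660, minus strand: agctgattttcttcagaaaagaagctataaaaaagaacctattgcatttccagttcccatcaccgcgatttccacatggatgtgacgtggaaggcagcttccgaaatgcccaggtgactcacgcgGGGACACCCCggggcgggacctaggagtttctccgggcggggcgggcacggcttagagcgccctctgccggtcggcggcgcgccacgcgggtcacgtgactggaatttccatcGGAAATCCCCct
Nfkbie, chr17:45555450-45555699, plus strand: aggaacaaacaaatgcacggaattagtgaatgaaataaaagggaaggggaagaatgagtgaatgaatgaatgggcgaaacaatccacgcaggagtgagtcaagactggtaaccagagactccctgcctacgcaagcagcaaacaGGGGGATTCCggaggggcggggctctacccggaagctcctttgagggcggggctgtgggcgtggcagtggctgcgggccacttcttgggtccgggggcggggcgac
Cxcl10, chr5:92348890-92349139, minus strand: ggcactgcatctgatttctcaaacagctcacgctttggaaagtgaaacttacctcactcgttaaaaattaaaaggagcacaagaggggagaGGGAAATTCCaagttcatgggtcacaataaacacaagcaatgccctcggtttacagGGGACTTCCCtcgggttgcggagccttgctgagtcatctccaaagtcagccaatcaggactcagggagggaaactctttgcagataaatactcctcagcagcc

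In Nfkbia the match GGAAATTCCC ends 20 bases before the start. The printed window of Nfkb2 holds 3 matches, GGGAATTCCC and GGAATTCCCC, which overlap, and GGGGCTTTCC, which ends 2 bases before the start. Its windows 2 and 3, not printed, hold GGAATGTCCC and GGGACTTTCC. Tnfaip3 has GGGACACCCC and GGAAATCCCC, the latter ending 3 bases before the start, while Nfkbie carries GGGGGATTCC and Cxcl10 GGGAAATTCC and GGGACTTCCC. The same search over all 32851 windows of this length found a match in 1281, or 3.90%. Of the 9 windows of the 10 genes, 5 had a match, belonging to Nfkbia, Nfkb2 and Tnfaip3. The letters of the consensus were not in the windows of Nfkbib, Rela, Bcl3 and Icam1 or in the second window of Tnfaip3. A match describes a sequence and is not a measured site.

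Nfkbia, which encodes IkB-alpha, the inhibitor that is degraded and remade within one round of signalling, was the most abundant of the 10 genes in controls. Its level was 20.61, 24.76, 25.72, 22.6, 28.98 and 23.65 TPM in controls 1 to 6. In selenium 1 to 6 it was 11.03, 13.35, 15.08, 18.75, 12.08 and 15.31 TPM. Every selenium library lay below every control library. The mean fell from 24.4 ± 2.86 to 14.3 ± 2.75 TPM (SD, n = 6 per group), a ratio of 0.585. On the log2(TPM + 1) scale the difference was -0.75, with a 95% interval of -1.02 to -0.47. In bulk liver, fewer cells of a type and less RNA per cell cannot be told apart.

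Nfkbia was the only one of the 9 tested genes past a Benjamini-Hochberg adjusted p of 0.05 in limma, a linear model fitted over all genes. Over all 9980 genes the same rule called 33, or 0.331%, of which 31 were lower (0.311%) and 2 higher (0.02%). That split was 41 lower and 53 higher when libraries were scaled by median of ratios, and leaving out 1 library gave as few as 7 lower and 0 higher (without control 2) and as many as 115 lower and 56 higher (without control 6). In 163 genes, or 1.63%, the groups did not overlap, and Nfkbia was the only one of the 9 among them. The call on Nfkbia was lost in 8 of the 12 fits that left out 1 library. Those were the fits without control 2, 3, 4 or 5 or selenium 1, 2, 3 or 5, with adjusted p from 0.0556 to 0.0949 by limma. The difference itself ran from -0.82 to -0.68 over the 12 fits.

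The authors' deposited table gives Nfkbia a log2 change of -0.72 and an adjusted p of 6.69e-05. Of the 57010 rows of the authors' deposited table, 1231, or 2.16%, have an adjusted p under 0.05. That share counts rows with 0 TPM in every library, as only 26179 rows had any level above 0. Of the 10 genes, only Nfkbia has an adjusted p under 0.05 there. In the authors' deposited table the next is Relb, with -1.48 and an adjusted p of 0.0535.

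**Figure D1:**
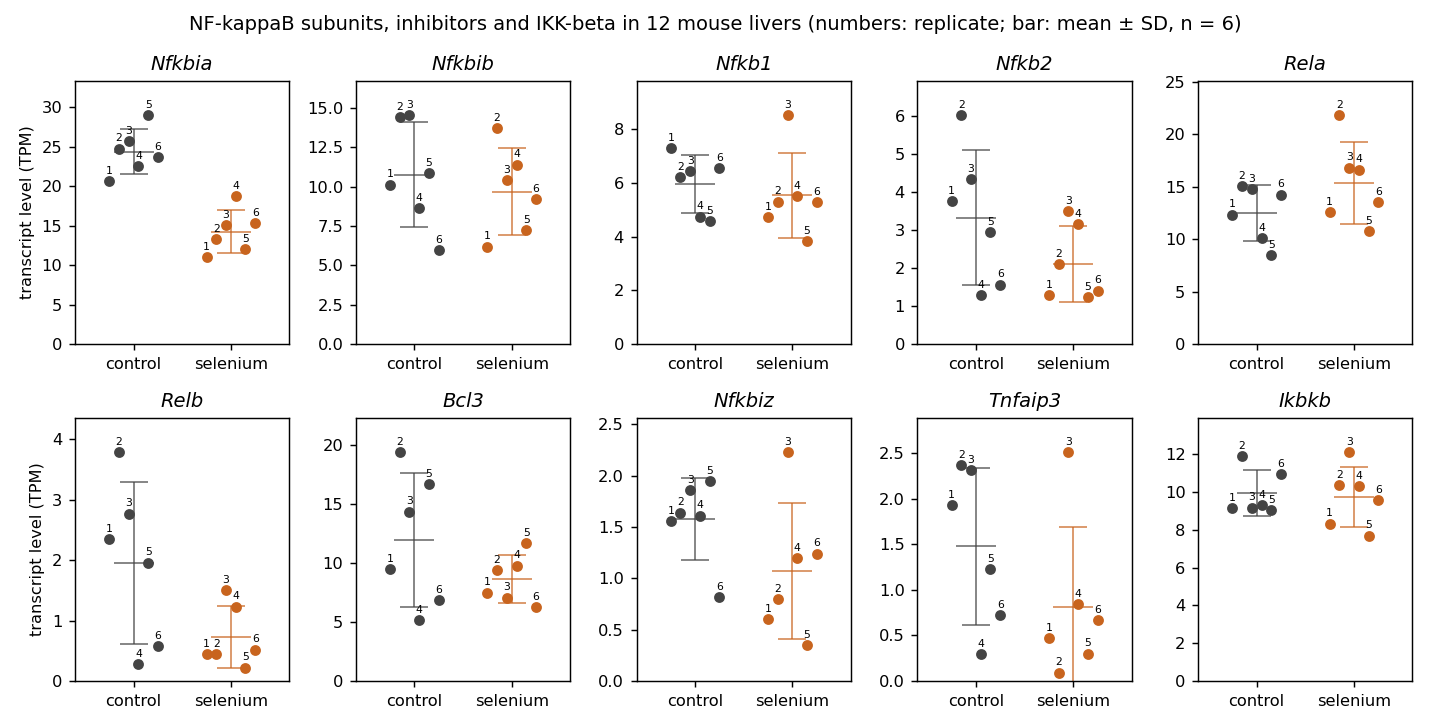
Transcript level in TPM (vertical axes, from 0, separate for each gene) of the 10 genes in 6 control and 6 selenium livers; points are libraries numbered by replicate, long bars the mean and whiskers the SD, which for Tnfaip3 runs past 0 and is drawn to 0. Nfkbia is the gene whose groups do not overlap, with 20.61 TPM in the lowest control and 18.75 TPM in the highest selenium library, while controls 4 and 6 sit low in Relb, Nfkb2 and Tnfaip3.

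The second classical inhibitor, Nfkbib, encodes IkB-beta, which binds Rela-containing dimers and is resynthesized more slowly. It stood at 10.13, 14.4, 14.53, 8.66, 10.88 and 5.98 TPM in controls 1 to 6. Selenium 1 to 6 had 6.19, 13.73, 10.44, 11.4, 7.22 and 9.19 TPM. The groups overlapped almost entirely, with a log2 difference of -0.13 (95% interval -0.58 to 0.33), which ran from -0.27 without control 6 to -0.02 without selenium 1. The ratio of Nfkbia to Nfkbib within a library, which no scaling by 1 factor per library can alter, was 2.46 ± 0.837 in controls and 1.53 ± 0.295 with selenium (SD, n = 6 per group). The ranges of that ratio met only at their ends, 1.72 to 3.95 against 0.972 to 1.78.

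Among the subunits, Rela, whose protein p65 carries the activation domain of the main dimer, was the one tested gene of the 9 with a positive difference. Its level was 12.36, 15.08, 14.76, 10.12, 8.48 and 14.25 TPM in controls 1 to 6. With selenium it was 12.58, 21.81, 16.82, 16.63, 10.77 and 13.53 TPM. Selenium 2, 3 and 4 exceeded the highest control, 15.08 TPM, and controls 4 and 5 lay below the lowest selenium library, 10.77 TPM. The other libraries mixed. The log2 difference was 0.27, with an interval of -0.11 to 0.65, and it was 0.17 without selenium 2 and 0.17 without control 5.

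Nfkbia and Rela stood in a different order in the groups. Controls held 1.64 to 3.42 transcripts of Nfkbia for each of Rela, and selenium libraries 0.612 to 1.13. In controls Nfkbia exceeded Rela in 6 of 6 libraries, and with selenium in 3 of 6.

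Nfkb1 encodes p105, the precursor of the p50 subunit and itself an IkB. The control mean was 5.98 ± 1.08 TPM and the selenium mean 5.54 ± 1.58 TPM, with a log2 difference of -0.11 (-0.45 to 0.23). Selenium 3 was the highest library at 8.52 TPM, and the other 5 selenium libraries ran from 3.85 to 5.52 TPM. The difference was -0.23 without selenium 3 and -0.03 without selenium 5.

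Relb and Nfkb2 encode the pair of subunits of the non-canonical pathway, RelB and p100, the precursor of p52. Relb was at 2.35, 3.79, 2.77, 0.28, 1.96 and 0.57 TPM in controls 1 to 6. In selenium 1 to 6 it was 0.44, 0.44, 1.5, 1.23, 0.22 and 0.52 TPM. Controls split into 4 libraries near 2 TPM or above and controls 4 and 6 at the level of most selenium libraries. The ratio of means was 0.371 and the log2 difference -0.68 (-1.32 to -0.03), which did not pass over all genes. It was -0.89 without control 4 and ran from -0.89 to -0.51 over the fits that left out 1 library, none of which called it.

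Nfkb2 followed the same libraries. It stood at 3.77, 6.02, 4.34, 1.3, 2.94 and 1.57 TPM in controls 1 to 6. Selenium 1 to 6 had 1.3, 2.11, 3.5, 3.15, 1.23 and 1.41 TPM. Controls 4 and 6 were again as low as the low selenium libraries, and selenium 3 and 4 stood above the other selenium libraries. The log2 difference was -0.42, with an interval of -1.01 to 0.16, and ran from -0.58 without control 4 to -0.26 without control 2.

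Tnfaip3 encodes A20, a ubiquitin-editing enzyme that shuts off signalling to IKK. Controls 1 to 6 had 1.93, 2.37, 2.31, 0.29, 1.23 and 0.72 TPM. The selenium libraries had 0.47, 0.09, 2.51, 0.84, 0.3 and 0.67 TPM. Selenium 3 was the highest of all 12 libraries and the other 5 were under 1 TPM, so the group means of 1.48 ± 0.865 and 0.813 ± 0.872 TPM describe few libraries well. Tnfaip3 was below the filter, and the difference of its log2 means was -0.47.

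The atypical IkB proteins act in the nucleus. Nfkbiz, which encodes IkB-zeta, a coactivator of secondary response genes, ran from 0.82 to 1.95 TPM in controls with a median of 1.63 TPM. With selenium it ran from 0.35 to 2.23 TPM with a median of 1.0 TPM, and its log2 difference was -0.35 (-0.76 to 0.05). Control 6 was the low library of its group and selenium 3 the high one, and the difference ran from -0.49 without selenium 3 to -0.24 without selenium 5.

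Bcl3, whose protein joins p50 or p52 dimers on DNA, stood at 9.44, 19.39, 14.34, 5.16, 16.65 and 6.87 TPM in controls 1 to 6. The selenium libraries lay closer together, from 6.22 to 11.68 TPM, inside the range of controls. Its coefficient of variation was 47.4% in controls and 23.7% with selenium. The log2 difference was -0.33 (-0.91 to 0.24), and it was -0.18 without control 2, -0.22 without control 5 and -0.52 without control 4.

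Ikbkb encodes IKK-beta, the kinase that marks IkB-alpha for degradation. It varied least after Nfkbia among controls, with 9.03 to 11.92 TPM, against 7.7 to 12.12 TPM with selenium. The log2 difference was -0.03, with an interval of -0.29 to 0.23, and it was 0.04 under median-of-ratios scaling.

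In all, 8 of the 9 tested genes had a negative difference and their median was -0.33, where the median over all 9980 genes was -0.03 and 54.6% were negative. Relb and Nfkbia were the members with an unadjusted p under 0.05, a limit that 18.5% of all genes passed, 11.4% lower and 7.01% higher. The 8 include genes that varied together among mice, as shown next, so they are not 8 separate observations. Apart from Ikbkb, each kept its sign under the 3 other scalings of the libraries.

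**Figure D2:**
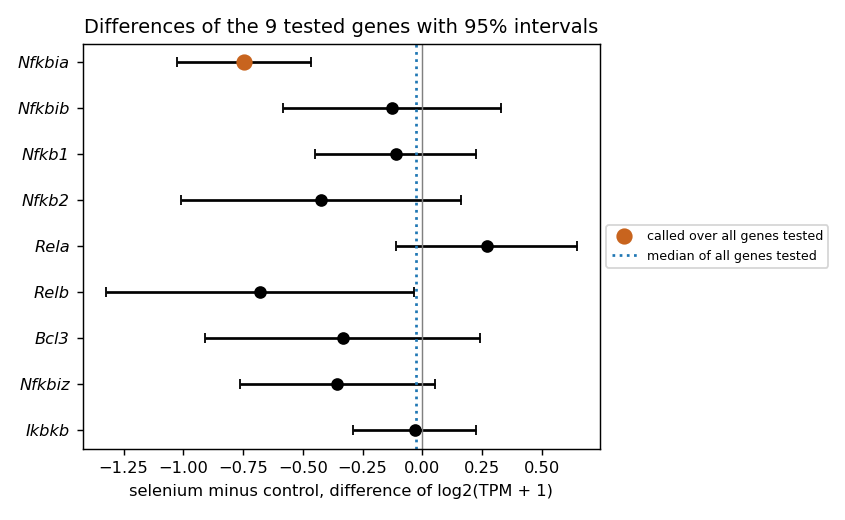
Selenium minus control difference of log2(TPM + 1) (horizontal axis) for the 9 tested genes, with 95% intervals of the moderated limma estimate as bars; the solid line is 0 and the dotted line the median of all genes tested, -0.03. Nfkbia, at -0.75, is marked as called, and the interval of Relb ends at -0.03 while the other 7 include 0.

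Per transcript, the order in controls was Nfkbia, Rela, Bcl3, Nfkbib, Ikbkb, Nfkb1, Nfkb2, Relb, Nfkbiz and Tnfaip3, from a mean of 24.4 TPM for Nfkbia over 9.93 TPM for Ikbkb to 1.48 TPM for Tnfaip3. Only 2 pairs of neighbours in that order had ranges that did not touch, Nfkbia above Rela and Ikbkb above Nfkb1. Rela, Bcl3, Nfkbib and Ikbkb were interleaved, with each neighbour ahead in 3 or 4 of 6 libraries. Nfkb1 exceeded Nfkb2, and Nfkb2 exceeded Relb, in 6 of 6 libraries although the ranges overlapped. With selenium the first places went to Rela at 15.4 TPM and Nfkbia at 14.3 TPM, and the last to Relb at 0.725 TPM.

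The difference between the groups, by which the genes were chosen, was removed before variation among mice was examined. After each gene was centred on its group mean, Nfkb2 and Relb varied together over the 12 livers, with Pearson's r of 0.97 and Spearman's rho of 0.96 (permutation within groups, two-sided, p = 4.00e-05 and 5.00e-05; n = 12). Relb and Tnfaip3 gave r = 0.89 and rho = 0.95 (permutation p = 9.00e-05 and 5.00e-05), and Nfkb2 and Tnfaip3 r = 0.83 and rho = 0.86 (permutation p = 0.00103 and 0.00116). These 36 pairs, all those without Nfkbia, were examined after the values had been seen. They include the pairs with Tnfaip3, which was below the filter and reached 1 TPM in only 5 of 12 libraries. Adjusted over the 36 pairs, the 3 pairs had p of 0.00144, 0.00162 and 0.0124 for r in the permutation test. Without controls 2 and 3, the farthest from the median of both Relb and Nfkb2, r was 0.95, 0.87 and 0.80.

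The relation was positive in each group. Within the 6 controls r was 0.99 for Nfkb2 with Relb and 0.97 for Relb with Tnfaip3, and within the 6 selenium livers 0.93 and 0.85. For Nfkb2 with Tnfaip3 r was 0.97 within controls and 0.68 within selenium livers. Selenium 3, the highest library in Tnfaip3, was not left out for these 3 pairs. Nfkbib with Nfkb2 had r = 0.79 and rho = 0.78 (permutation p = 0.00546 and 0.00640), with an adjusted p of 0.0491 for r and 0.0576 for rho, and r was 0.73 without controls 3 and 6. Bcl3 was correlated with Relb at 0.91 within controls and at -0.31 within selenium livers, with n = 6 each, and the difference between the groups was not tested. Rela, Nfkb1 and Ikbkb had r of 0.65 to 0.72 and rho of 0.64 to 0.73 with each other, with an adjusted permutation p for r of 0.0747 to 0.0967 over the 36 pairs, and r was 0.43 to 0.70 under median-of-ratios scaling.

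The correlation of Nfkbia with the other 8 tested genes ran from r = 0.15 for Nfkb1 to 0.58 for Nfkbiz, and none passed after adjustment over these 8, with smallest adjusted p of 0.291 for r and 0.0944 for rho (n = 12, two-sided permutation within groups). For Nfkbiz, rho was 0.78 and the permutation p 0.0866 for r and 0.0118 for rho, and r was 0.51 without control 5 and selenium 1, the libraries farthest from the median of Nfkbia. With Relb r was 0.42 and rho 0.48 (permutation p = 0.138 and 0.109), where Ikbkb had r = 0.41 and Rela r = 0.37 with Relb. No difference between correlations was tested. For Nfkbia with Rela, r was 0.16 and rho 0.10 (permutation p = 0.659 and 0.756), and r was -0.0593 under median-of-ratios scaling. In controls 4 and 6, where Relb, Nfkb2 and Tnfaip3 were low, Nfkbia stood at 22.6 and 23.65 TPM, between control 1 at 20.61 TPM and control 5 at 28.98 TPM. The summed level of 11 Kupffer cell markers was 183 and 123 TPM in controls 4 and 6, and 83.6 and 124 TPM in controls 2 and 3, where these 3 genes were highest among controls. Controls 4 and 6 had the highest sums among controls for hepatocyte markers (50263 and 58572 TPM), endothelial markers (53.5 and 60.7 TPM) and stellate cell markers (75.5 and 65.2 TPM). Control 2 had the lowest endothelial and stellate sums of the controls, 25.1 and 52.6 TPM. Lymphocyte marker sums were 2.32 and 4.69 TPM in controls 4 and 6, and 4.72 and 6.61 TPM in controls 2 and 3. Monocyte and neutrophil sums were 36.4 and 118 TPM in controls 4 and 6, and 63.4 and 78.3 TPM in controls 2 and 3. Cholangiocyte sums, mostly Spp1, were lowest of the controls in controls 4 and 6 (27.7 and 24.98 TPM). Among selenium livers both leukocyte sums were highest in selenium 3 and 4, as were Relb, Nfkb2 and Tnfaip3. The part of cell makeup in these correlations was not tested.

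**Figure D3:**
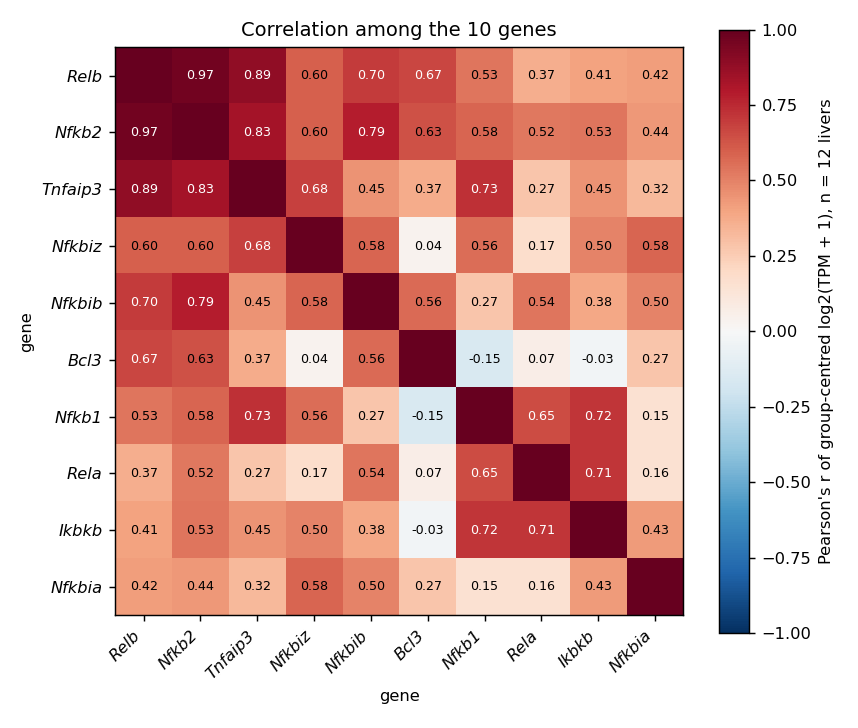
Pearson's r between the 10 genes (both axes) over 12 livers, from log2(TPM + 1) values centred on the group mean; red is positive and blue negative on the colour bar. The block of Relb, Nfkb2 and Tnfaip3 at the upper left holds r of 0.83 to 0.97, and the bottom row, Nfkbia, runs from 0.15 to 0.58.

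The gene most like Relb among 5236 genes with a mean of at least 5 TPM and a proper symbol was Cxcl10, a chemokine gene and NF-kappaB target (r = 0.98, n = 12 centred values). For Nfkb2 it was Icam1, an adhesion molecule that is likewise an NF-kappaB target (r = 0.94). Cxcl10 was at 10.01, 25.61, 12.97, 0.72, 6.67 and 0.55 TPM in controls 1 to 6 and from 0.87 to 8.91 TPM with selenium. As with Relb, controls 4 and 6 were the low controls and selenium 3 and 4 the high selenium libraries. Nfkbie, which encodes IkB-epsilon, repeated it, with 0.73 and 1.51 TPM in controls 4 and 6, 3.29 to 7.55 TPM in the other controls, and 1.19 to 3.19 TPM with selenium.

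The genes most like Nfkbia were others. They were Ap4s1, N4bp2l2, Dbndd2, Ostf1, Dnajc8, Pigk, Polr2k and Srsf3, with r from 0.92 down to 0.86. None of these 8 is on the list of NF-kappaB targets, which tells little, as that list has only 36 genes and the candidates were 5236. Their log2 differences between the groups ran from -0.35 for Polr2k to 0.06 for Ap4s1. That of Nfkbia was -0.75, but Nfkbia was chosen with its difference known, so the comparison carries no weight. The closest genes to the remaining members were Znrf1 for Nfkbib, Chka for Nfkbiz, Dpp3 for Nfkb1, Cers2 for Rela, Pacsin3 for Ikbkb and Spc24 for Bcl3, with r of 0.91 to 0.97. All were picked as the highest of 5236 and carry no test.

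**Figure D4:**
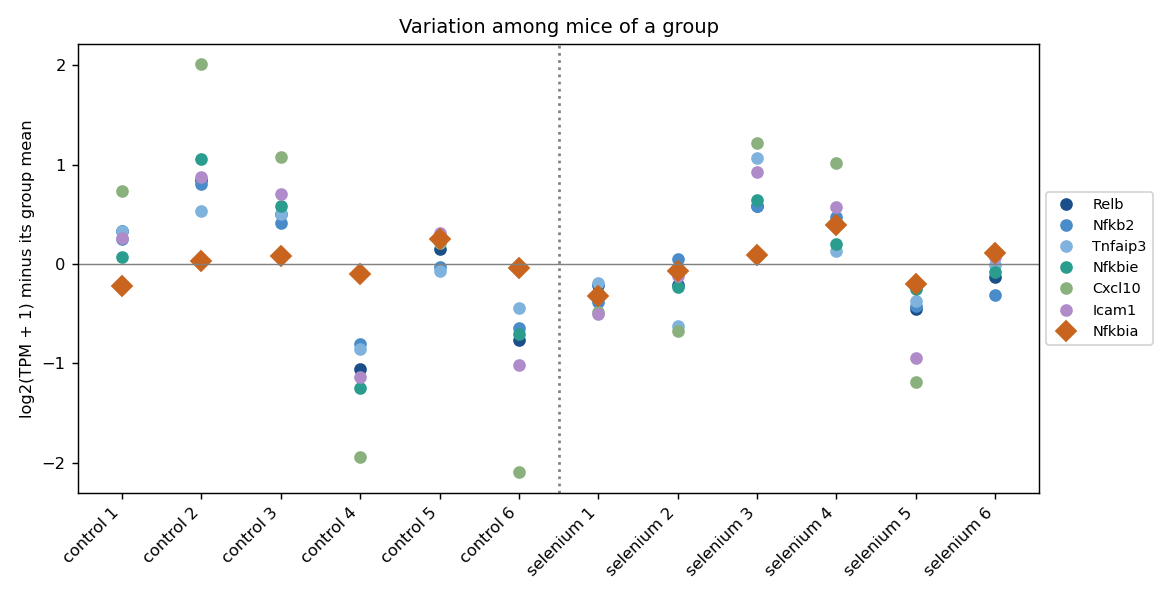
Log2(TPM + 1) minus its group mean (vertical axis) in each of the 12 livers (horizontal axis) for Relb, Nfkb2, Tnfaip3, Nfkbie, Cxcl10 and Icam1 (circles) and Nfkbia (diamonds). In controls 4 and 6 the circles lie below 0 while Nfkbia lies near 0, and in controls 2 and 3 and selenium 3 the circles lie above Nfkbia.

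Over a list of 36 NF-kappaB target genes, 25 were tested. Their correlation with Relb had a median of 0.70, against 0.06 over all 9980 genes, and a lowest value of -0.56. Of the 25, 18, or 72%, exceeded 0.6, against 5.57% of all 9980 genes. Besides Cxcl10 and Icam1, the highest were Nfkbie (0.97), the microbe receptor Tlr2 (0.96), the macrophage growth factor Csf1 (0.93) and the A20-binding Tnip1 (0.91). With Nfkbia the median was 0.43, against 0.20 over all genes, and the lowest value 0.13, so each of the 25 was positive. Of them 3, or 12%, exceeded 0.6, against 9.39% of all genes. With Nfkb2 the median was 0.67 and 16 of 25 exceeded 0.6 (all genes: median 0.09, 6.03%). With Nfkb1 these were 0.44 and 3 of 25 (all genes: 0.28, 18.5%), and with Rela 0.18 and 0 of 25 (all genes: 0.20, 13.5%). These are descriptions over 12 livers that share their libraries. Under median-of-ratios scaling 18 of 25 exceeded 0.6 with Relb, 14 with Nfkb2, 3 with Nfkbia, 1 with Nfkb1 and 0 with Rela.

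Between the groups, 0 of the 25 target genes were called and 1, the chemokine gene Ccl5, had an unadjusted p under 0.05 in limma. Their median log2 difference was -0.42, with 18 negative (18 to 20 over the 3 other scalings). Control livers held 11.4 ± 12.3 TPM of Ccl5, against 4.11 ± 6.42 TPM in selenium livers, and for Icam1 the means were 13.7 ± 7.31 and 7.28 ± 3.87 TPM. For both genes the SD of the controls exceeded the difference of the means.

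Of the other family members, Rel, which encodes c-Rel of lymphoid cells, was under 1 TPM in every library, as was Nfkbid, which encodes the atypical IkB-NS. Nfkbie had a control mean of 3.68 ± 2.48 TPM and a selenium mean of 1.75 ± 0.778 TPM, a log2 difference of -0.62 that did not pass.

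No gene of the signalling chain was called. The 10 lists written for the pathway and related responses hold 143 symbols besides the members, of which 142 were in the table and 105 were tested. In limma 0 of the 105 passed over all genes, with a smallest adjusted p of 0.0717. Before adjustment 4 genes were higher and 14 lower with a p that lay under 0.05, which is 17.1% of the 105 and close to the 18.5% of all genes. Their median was -0.18.

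Receptors and ligands start the chain. Of 12 tested receptors 0 passed, with a median of -0.17, and of 4 tested ligands 0, with a median of -0.26. Tlr3, the endosomal receptor for double-stranded RNA, had means of 2.06 ± 0.732 TPM (controls) and 0.922 ± 0.377 TPM (selenium; limma adjusted p = 0.0988). Ly96, the partner of Tlr4 in sensing lipopolysaccharide, stood at 9.40 ± 1.00 and 7.24 ± 1.14 TPM (limma adjusted p = 0.158). The ligand genes Il18 and Ltb had log2 differences of -0.36 and -0.61. Without adjustment 3 receptors and 0 ligands passed 0.05 in limma.

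Adaptors and ubiquitin ligases carry the signal to IKK, and 15 were tested. None passed in limma, and 3 had an unadjusted p under 0.05. Ube2v1, a cofactor for the chains that recruit the kinases, was at 23.2 ± 5.10 and 34.96 ± 9.37 TPM, and Birc2, the ligase cIAP1, at 5.24 ± 1.69 and 3.49 ± 0.898 TPM. Of 10 tested kinases and IKK subunits 2 were higher and 2 lower with an unadjusted p under 0.05 in limma, and 0 passed. Ikbkg, which encodes the IKK scaffold NEMO, averaged 9.01 ± 1.57 and 12.2 ± 2.48 TPM, and the death-domain kinase Ripk1 3.99 ± 0.717 and 5.26 ± 0.959 TPM. The lower ones, named after their values were seen, were Map3k8, a kinase bound by p105, with a log2 difference of -0.40, and Chuk, which encodes IKK-alpha, with -0.25.

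The ligase that destroys phosphorylated IkB had 11 tested genes and a median of 0.03, with 0 called and 1, the scaffold Cul1, under 0.05 before adjustment in limma. The control mean of Cul1 was 23.5 ± 2.20 TPM and the selenium mean 19.5 ± 1.41 TPM. Fbxw11, a substrate receptor of it, had a log2 difference of 0.21. The 11 tested negative regulators had a median of -0.01, with 0 called and 0 under 0.05 before adjustment in limma, and the deubiquitinase Otulin and the adaptor Tollip stood at 0.27 and 0.24. The medians of the adaptors, the IkB ligase and the negative regulators changed sign in at least 1 of the 3 other scalings.

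Genes of early feedback and genes induced by glucocorticoids were set beside Nfkbia, which is known to respond to both kinds of signal. Of 14 tested early feedback genes 12 were negative, with a median of -0.54, 0 called and 5 with an unadjusted p under 0.05 in limma. Dusp1, a MAP kinase phosphatase on both lists, was at 11.3 ± 5.66 and 4.13 ± 1.47 TPM, and Gadd45g at 19.5 ± 12.5 and 5.07 ± 3.21 TPM. All 10 tested glucocorticoid-induced genes were negative, with a median of -0.65, 0 called and 2 with an unadjusted p under 0.05 in limma, and all 10 were negative in each of the other scalings. Sgk1, of the latter list, stood at 5.94 ± 2.54 and 3.39 ± 1.32 TPM. Mt1 was negative on the log2 scale only, with means of 548 ± 196 TPM in controls and 638 ± 506 TPM with selenium. Zbtb16, listed but not tested, had means of 0.977 TPM in controls and 1.35 TPM with selenium. Over all 9980 genes 54.6% were negative and 18.5% had an unadjusted p under 0.05 in limma.

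**Figure D5:**
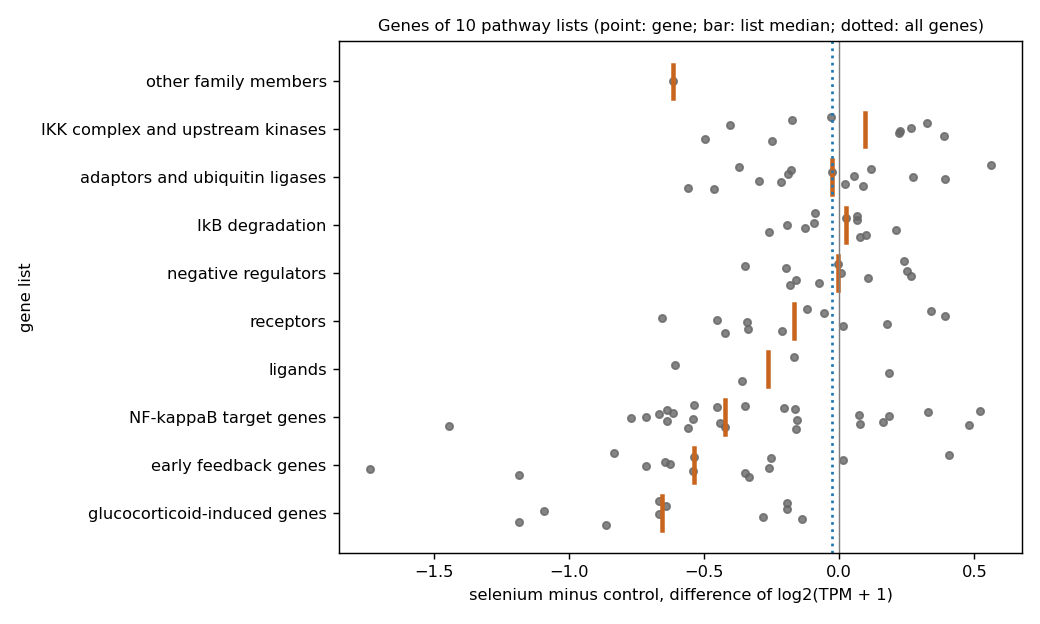
Selenium minus control difference of log2(TPM + 1) (horizontal axis) for the tested genes of 10 lists (vertical axis); each grey point is a gene, orange bars are list medians, and the dotted line is the median of all genes tested, -0.03. Kinases, adaptors, IkB degradation and negative regulators scatter around 0, while the medians of target, early feedback and glucocorticoid-induced genes are -0.42, -0.54 and -0.65, and 0 genes were called in any list.

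Libraries also differed in clock genes and in cell markers. Dbp, an output gene of the circadian clock, separated 4 libraries from the rest. It reached 15.7 TPM in control 5, 28.51 TPM in control 6, 31.45 TPM in selenium 1 and 53.57 TPM in selenium 5, and stayed under 2 TPM in the other 8. Among those 8 libraries the log2 difference of Nfkbia was -0.56, and among the 4 with high Dbp it was -1.12. The groups did not overlap in either set, which follows from their not overlapping over all 12 libraries. The call was lost with 8 libraries (limma adjusted p = 0.0802), and the difference between the sets was not tested. The 8 libraries were not matched for another clock gene, Nr1d1, which encodes the repressor REV-ERB-alpha. Nr1d1 was at 1.04, 1.1, 1.58 and 2.92 TPM in controls 1 to 4, and at 18.09, 9.98, 9.86 and 8.6 TPM in selenium 2, 3, 4 and 6, with no overlap. In the 4 libraries with high Dbp it was 21.85 and 27.05 TPM in controls 5 and 6 and 27.86 and 29.26 TPM in selenium 1 and 5. Over all 12 libraries its log2 difference was 1.57, which was not called (limma adjusted p = 0.220). Controls 5 and 6, with Nr1d1 above that of selenium 2, 3, 4 and 6, had Nfkbia at 28.98 and 23.65 TPM. The part of clock genes in the difference of Nfkbia was not tested beyond these values.

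The labels name liver as the tissue and hepatocyte as the cell type, and markers of other liver cells were measured as well. The 9 hepatocyte markers summed to 35398 to 58572 TPM among controls and 39001 to 58454 TPM among selenium livers. All 11 Kupffer cell markers, of the resident macrophages, were measured, with sums of 83.6 to 183 TPM among controls and 72.9 to 337 TPM among selenium livers. All 11 had a positive difference (10 when mitochondrial genes were left out of TPM), with 0 called and 0 under 0.05 before adjustment in limma. The 8 markers of monocytes and neutrophils summed to 36.4 to 425 and 16.9 to 266 TPM, and the 4 tested all had a negative difference, with a median of -0.58, 0 called and 0 under 0.05 before adjustment in limma. Selenium 3 had the highest Kupffer sum of all libraries and the highest monocyte and neutrophil sum of its group. It also had the highest stellate sum of all libraries, 78.1 TPM. Within its group its endothelial, cholangiocyte and lymphocyte marker sums were the highest and its hepatocyte sum the lowest. It was the library with the highest Nfkb1, Nfkbiz and Tnfaip3. Control 5 had the highest monocyte and neutrophil sum and the highest Nfkbia. Its cholangiocyte sum of 269 TPM was also the highest of all libraries, and its hepatocyte sum of 35398 TPM the lowest. The cholangiocyte sums were mostly 1 gene, Spp1, which reached 265.71 TPM in controls and 128.74 TPM with selenium. No other cholangiocyte marker exceeded 3.25 TPM. The part of these cells in the values was not tested.

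The remaining marker sums overlapped between the groups. Those of endothelium (8 genes) ran from 25.1 to 60.7 TPM among controls and from 28.9 to 52.8 TPM among selenium livers, stellate cell markers from 52.6 to 75.5 and 22.5 to 78.1 TPM over 8, and cholangiocyte markers from 24.98 to 269 and 16.0 to 133 TPM over 5. All 4 tested stellate markers were negative, with a median of -0.29, 0 called and 1, Dcn, under 0.05 before adjustment in limma (log2 difference -0.55, adjusted p = 0.190). Both tested cholangiocyte markers were negative, with a median of -0.52 and 0 called, and the cholangiocyte sums mostly reflect Spp1. Lymphocyte markers summed to at most 6.61 TPM. No marker gene was at 0 in all 12 libraries.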

How the data were processed

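Liver RNA of 12 mice was sequenced, and each mouse is 1 library. Groups and replicate numbers come from the sample titles. The submitters' processing notes name RSEM 1.2.8, HISAT2 2.1.0, DESeq2 and build GRCm39. The authors deposited TPM per gene and library, and single-library values equalled the series table in 100% of cases. TPM scales every library to the same total, so abundant genes shift all others. The authors also deposited, per gene, a log2 fold change with control as numerator, whose sign was turned here, and its raw and adjusted p-value.

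Genes with at least 1 TPM in 6 of 12 libraries (9980) were tested on log2(TPM + 1) with limma 3.58.1 in R 4.3.3 (empirical Bayes with trend, two-sided, Benjamini-Hochberg over all genes, threshold 0.05), a procedure tested on simulated data. The pseudocount of 1 understates changes of low genes. Correlations used group-centred values and 100000 permutations within groups (numpy 2.4.6). The members and lists were chosen with earlier results of these data known. Named were the members, in each list the 2 genes with the smallest p, and the genes most like each member. Other genes on the target list with high correlation to Relb were named after their values were seen. Alternatives were a filter of 5 TPM or none, pseudocounts of 0.1 and 0.5, 3 scalings, limma without trend, robust or with array weights, a replicate block, leaving out each library, and the libraries with Dbp under 10 TPM. For correlations they were a pseudocount of 0.1, median-of-ratios scaling, uncentred values and leaving out 2 libraries. That scaling of the 36 pairs was added after seeing the data. Some libraries may share litter or cage, which the labels do not say.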

Additional observations from a re-analysis of the deposited data

Results flagged for a closer look

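Within a group of 6 libraries, a gap test (Dixon, 95%) found 3 libraries apart among 20 combinations of gene and group. Chance gives about 1 in 20. In controls Nfkbiz was 0.82 TPM in control 6, against 1.56 to 1.95 TPM in the others. With selenium, Nfkb1 was 8.52 TPM in selenium 3, where the others ended at 5.52 TPM. Tnfaip3 was 2.51 TPM in selenium 3, and the next highest selenium library had 0.84 TPM. Selenium 3 also had the highest sums of Kupffer cell markers, 337 TPM, and of stellate cell markers, 78.1 TPM. Its hepatocyte marker sum was the lowest of its group. The part of cell makeup in these values was not tested.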

How the results depend on the processing

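The log2 difference of Nfkbia stayed between -0.84 and -0.56 over 24 alternatives and was called in 13, with adjusted p from 0.0156 to 0.107 in limma. It was not called without a filter (-0.75), in the libraries with low Dbp (-0.56), or in 8 of the fits leaving out 1 library, which ran from -0.82 to -0.68. Nor was it called with a replicate block (-0.75), where 0 higher and 3 lower genes passed over all genes. Titles share numbers, but same-numbered libraries deviated together with r of only -0.14 to 0.11, and 0 of 6 matched their own number best, so the numbers are read as names.

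Over all genes 2 higher and 31 lower were called. The counts were 1 higher at a pseudocount of 0.1 and 1 with a filter of 5 TPM, 0 and 1 without a filter, 53 higher with median-of-ratios scaling, 10 lower with quantile normalization, 6 and 185 without mitochondrial genes, 4 and 52 with robust empirical Bayes, 114 and 141 with array weights, and 34 and 13 in the libraries with low Dbp. Leaving out 1 library gave 0 to 56 higher and 7 to 115 lower, the highest without control 6. In the pathway lists 0 genes were called, and 1 in each of 3 alternatives: Dusp1 without mitochondrial genes, Tlr3 with array weights and Socs3, higher, in the libraries with low Dbp. The cause was not tested.

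Under median-of-ratios scaling the correlation of Nfkbia was -0.40 with Nfkb1 and -0.0593 with Rela, and uncentred it was -0.30 with Rela. That of Nfkbib with Nfkb2 was 0.76 and no longer passed, while the 3 pairs of Relb, Nfkb2 and Tnfaip3 did. The depth is unknown, which limits Relb, Tnfaip3 and Nfkbiz most. Leaving out each library was not run for Tnfaip3, which was below the filter.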
